A study of Mus musculus with 12 samples.

Results

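The genes described here are 10 chaperones of the cytosol and mitochondria, of 45796 genes in the deposited table: the Hsp90 genes Hsp90ab1 and Hsp90aa1 with the Hsp90 co-chaperone Stip1, the Hsp70-family genes Hspa8, Hspa4 and Hspa9, the mitochondrial chaperonin genes Hspd1 and Hspe1, and the cytosolic chaperonin genes Cct2 and Cct3. They were chosen by symbol and function, with earlier results of these data known, and all 10 were in the table. RNA came from Vg4+Vd4+ gamma delta T cells of the skin-draining lymph nodes of C57BL/6 mice. There were 4 groups of 3 libraries: wild type with sham cream, wild type with imiquimod cream, NF-kB1 deficient with sham cream and NF-kB1 deficient with imiquimod cream. All libraries therefore shared strain, organ and sorted cell type, and each mouse had received a cream. The labels do not name the NF-kB1 allele, the duration of treatment, or whether separate animals gave the 3 libraries of a group. The p-values below therefore rest on the spread between libraries, which may be technical. That spread was pooled over genes and is mostly not a gene's own.

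Chaperones bind unfolded or partly folded proteins and keep them from aggregating while they reach their working shape. Hsp70 proteins take up short exposed stretches of new proteins, Stip1 hands some of these clients on to Hsp90, and Hsp90 finishes the folding of signalling proteins such as kinases and steroid receptors. Barrel-shaped chaperonins enclose whole proteins: Hspd1 with its lid Hspe1 in mitochondria, and the TRiC complex, to which Cct2 and Cct3 belong, in the cytosol, where actin and tubulin are clients. Activated lymphocytes make protein at a high rate, and imiquimod is an agonist of Toll-like receptor 7 that is used on mouse skin to bring about a psoriasis-like inflammation.

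Values are normalized read counts on a linear scale, called normalized values below, from a library kit that reads 1 fragment near the 3' end of a transcript, so that levels of different genes can be set side by side without a length correction. The libraries were shallow: the reads behind the values were estimated at 20507 (wild-type imiquimod replicate 3) to 69455 (wild-type sham replicate 2) per library, with a median of 35383. Of the 10 genes, 8 had a mean of at least 5 over the 12 libraries and entered the fit, while Stip1 and Cct3 did not. Log2 fold changes are on the log2(normalized value + 1) scale, with standard errors from limma and 95% intervals; a gene is called at a Benjamini-Hochberg adjusted p under 0.05 over the 1571 genes tested. The added 1 shrinks ratios between low values. Where libraries are listed at 0, an estimate can also exceed the change of the group means or, as for Hspa9 in wild-type cells, differ from it in direction. In bulk RNA, fewer cells of a type and less RNA per cell cannot be told apart.

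The cells carried T cell receptor transcripts but also showed differences beyond the chaperones. Of 17 gamma delta T cell markers 11 were above 0 in at least 1 library, while Trdc, Trdv4, Tcrg-C1, Tcrg-V4, Tcrg-V6 and Il17a were listed at 0 in all 12. The summed normalized value of the marker list was 35.9 to 80.2 in wild-type imiquimod, against 153 to 176 in wild-type sham, 76.1 to 180 in NF-kB1-deficient sham and 138 to 165 in NF-kB1-deficient imiquimod. Tcrd (14.1 to 30.5 in wild-type imiquimod, 65.8 to 76.8 in wild-type sham) and Cd27 (3.96 to 6.32 and 32.7 to 64.3) separated those groups, whereas Tcrg-C2 (12.3 to 22.3 and 10.5 to 28.3) and Cd3d overlapped. An alpha beta T cell list, with 4 of 9 markers above 0 and mostly Tcrb, summed to 60.6 to 85.4 in wild-type imiquimod, 78.6 to 110.1 in wild-type sham, 88.0 to 109 in NF-kB1-deficient sham and 84.6 to 90.3 in NF-kB1-deficient imiquimod, while Trac, Trbc1, Trbc2, Cd4 and Foxp3 were listed at 0 throughout. The nuclear RNA Malat1 was also low in wild-type imiquimod, at 229 to 381, against 742 to 1417 over the other 3 groups. A plasma cell list summed to 6.93 to 21.5 in wild-type imiquimod, 2.25 to 21.7 in NF-kB1-deficient imiquimod and at most 6.21 in sham libraries. In wild-type imiquimod this was mostly Prdm1 (6.81 to 8.42) and Xbp1 (0 to 14.7), with Jchain and Mzb1 listed at 0. An erythroid list ranged from 0 to 50.6 in NF-kB1-deficient imiquimod and reached at most 3.68 in the other 3 groups. Tcrd, Cd27 and Malat1, which were lower, and Prdm1, which was higher, set wild-type imiquimod apart from the other 3 groups, as Hsp90ab1 did below. Prdm1 was at most 5.51 outside wild-type imiquimod. The alpha beta list in wild-type imiquimod overlapped wild-type sham and NF-kB1-deficient imiquimod, and the plasma cell list overlapped only NF-kB1-deficient imiquimod. The part of all these differences in the chaperone results was not tested.

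The mouse Hspd1 and Hspe1 genes lie head to head on chromosome 1 and share a promoter, and a stretch of it is shown because it holds the only 3-unit heat shock element found among the members. The element bound by heat shock factors is made of repeats of GAA facing in alternate directions. RefSeq promoter windows (GRCm38.p6, from 250 bases before to 50 bases after a start) were at hand for 6 members, Hspa4, Hspd1, Hspe1, Stip1, Cct2 and Cct3. They were searched on both strands for the 3-unit form GAANNTTCNNGAA. It was present in the window of Hspe1, in that of 1 RefSeq start of Hspd1, and in 198 of all 32851 windows, a share of 0.603%. The window of 1 RefSeq start of Cct2 held the shorter 2-unit form GAANNTTC, which is part of the 3-unit form and occurred in 7.86% of windows. The window of another Cct2 start held no match. Of the further chaperone genes, Hsph1, Chordc1 and Dnajb6 held the 3-unit form, and Hsph1, a stress-inducible gene, is shown as an example. Capitals mark the matches, and each sequence is written 5' to 3' on the strand of its gene. The first lies at chr1:55088053-55088082 on the plus strand, the second at chr10:117063399-117063428 on the minus strand and the third at chr5:149636287-149636316 on the minus strand.
Hspe1: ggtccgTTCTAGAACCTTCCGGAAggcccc
Cct2: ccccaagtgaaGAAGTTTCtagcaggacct
Hsph1: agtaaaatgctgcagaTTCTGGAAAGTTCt

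In the Hspe1 sequence 2 overlapping matches of the 3-unit form, on the reverse strand in the letters TTCNNGAANNTTC and on the forward strand, form a run of 18 bases, at positions -89 to -72 relative to the Hspe1 start. The same letters lie in a window of each gene: a RefSeq start of Hspd1 lies 216 bases from that of Hspe1, and their windows share 285 bases. The window of another RefSeq start of Hspd1 shares only 4 bases with that of Hspe1 and held no heat shock element match. A match describes letters in a window, and no binding was measured here.

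Imiquimod was followed by a higher level of 1 of the 8 tested chaperone genes in wild-type cells, Hsp90ab1, which rose about 3-fold. Among all 1571 genes tested, 1.65% were called higher in this comparison and 3.25% in either direction. Hspa8 and Hspe1 were also higher in every wild-type imiquimod library than in every wild-type sham library without passing the adjusted test. Groups that did not overlap in that direction made up 10.7% of all genes tested and 3 of the 8 chaperones. Fold changes were positive for 7 of the 8, with a median log2 fold change of 1.70, against 48.1% positive and a median of -0.07 over all genes tested. Because the genes were chosen with earlier results of these data known, this contrast is a description and no test. Each of the 8 had a mean of at least 5 over the 9 other libraries too, so none entered the tests through the wild-type imiquimod libraries alone. Hspa8, however, had means of 3.13 in wild-type sham and 2.43 in NF-kB1-deficient sham, and entered through the imiquimod libraries of both genotypes. Its place among the 3 that did not overlap is therefore partly set by the filter. In NF-kB1-deficient cells 0 of the 8 were called, and the median was 0.27 with 6 positive, against 0.14 and 56% positive over all genes. In that comparison 0% of the 1571 genes were called and 3.37%, 53 genes, had an unadjusted p under 0.05.

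The constitutive cytosolic Hsp90 gene, Hsp90ab1 (Entrez Gene 15516, chr17:45567775-45573271, minus strand, GRCm38), was by far the most abundant of the 10, with a mean normalized value of 147.7 over the 12 libraries. The table held only 6 genes with a higher mean, and Hsp90ab1 made up 46.7% to 77.6% of the summed value of the 10 genes in a library. In wild-type sham cells it stood at 130, 53.9 and 117 in replicates 1, 2 and 3, and in wild-type imiquimod cells at 236, 287 and 332. Every wild-type imiquimod library was above every other library of the series. In NF-kB1-deficient cells it stood at 110, 49.3 and 98.8 under sham cream and at 104, 101 and 154 under imiquimod, and these groups overlapped. The group means were 100.4 ± 40.8 in wild-type sham, 285 ± 47.6 in wild-type imiquimod, 86.0 ± 32.3 in NF-kB1-deficient sham and 119 ± 29.7 in NF-kB1-deficient imiquimod (SD, n = 3 each). Replicate 2 was the lowest library in both sham groups. From 45.0 to 272.58 estimated reads stood behind each Hsp90ab1 value, more than for any other member.

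In wild-type cells the log2 fold change of Hsp90ab1 under imiquimod was 1.58 ± 0.31 (SE; interval 0.97 to 2.19), a 2.99-fold difference with a limma adjusted p of 0.000175, and it ranked 7 by p among the genes tested. The call held in each of the 12 fits that left out 1 library, and over all alternatives the log2 fold change stayed between 1.19 and 1.81. It was lost when the variance prior was fitted without its trend and robust options, at an adjusted p of 0.240. In NF-kB1-deficient cells the log2 fold change was 0.52 ± 0.31 (interval -0.08 to 1.13; limma adjusted p = 0.996). Under sham cream the genotypes differed by -0.20 ± 0.31 on the log2 scale (limma adjusted p = 0.978).

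Under imiquimod Hsp90ab1 was lower in NF-kB1-deficient than in wild-type cells, with no overlap between the groups. The log2 difference was -1.26 ± 0.31 (interval -1.87 to -0.66; limma adjusted p = 0.0124), and Hsp90ab1 was the only one of the 8 genes called, against 0.509% of all genes called lower. The call was lost in limma fits without NF-kB1-deficient imiquimod replicate 1 (-1.17, adjusted p = 0.0774) or replicate 2 (-1.16, adjusted p = 0.114), without a filter on low values (adjusted p = 0.371) and without trend and robust options (adjusted p = 0.444). This comparison shares the wild-type imiquimod libraries with the wild-type treatment comparison, so the 2 calls are not independent. Tested directly, the imiquimod responses of the genotypes differed by -1.06 ± 0.43 on the log2 scale (interval -1.91 to -0.20), with an unadjusted limma p of 0.0159 and an adjusted p of 0.335. The difference of responses was thus not called for Hsp90ab1. It was called for 0 of the 8 chaperones and for 7 of 1571 genes, or 0.446%.

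**Figure D1:**
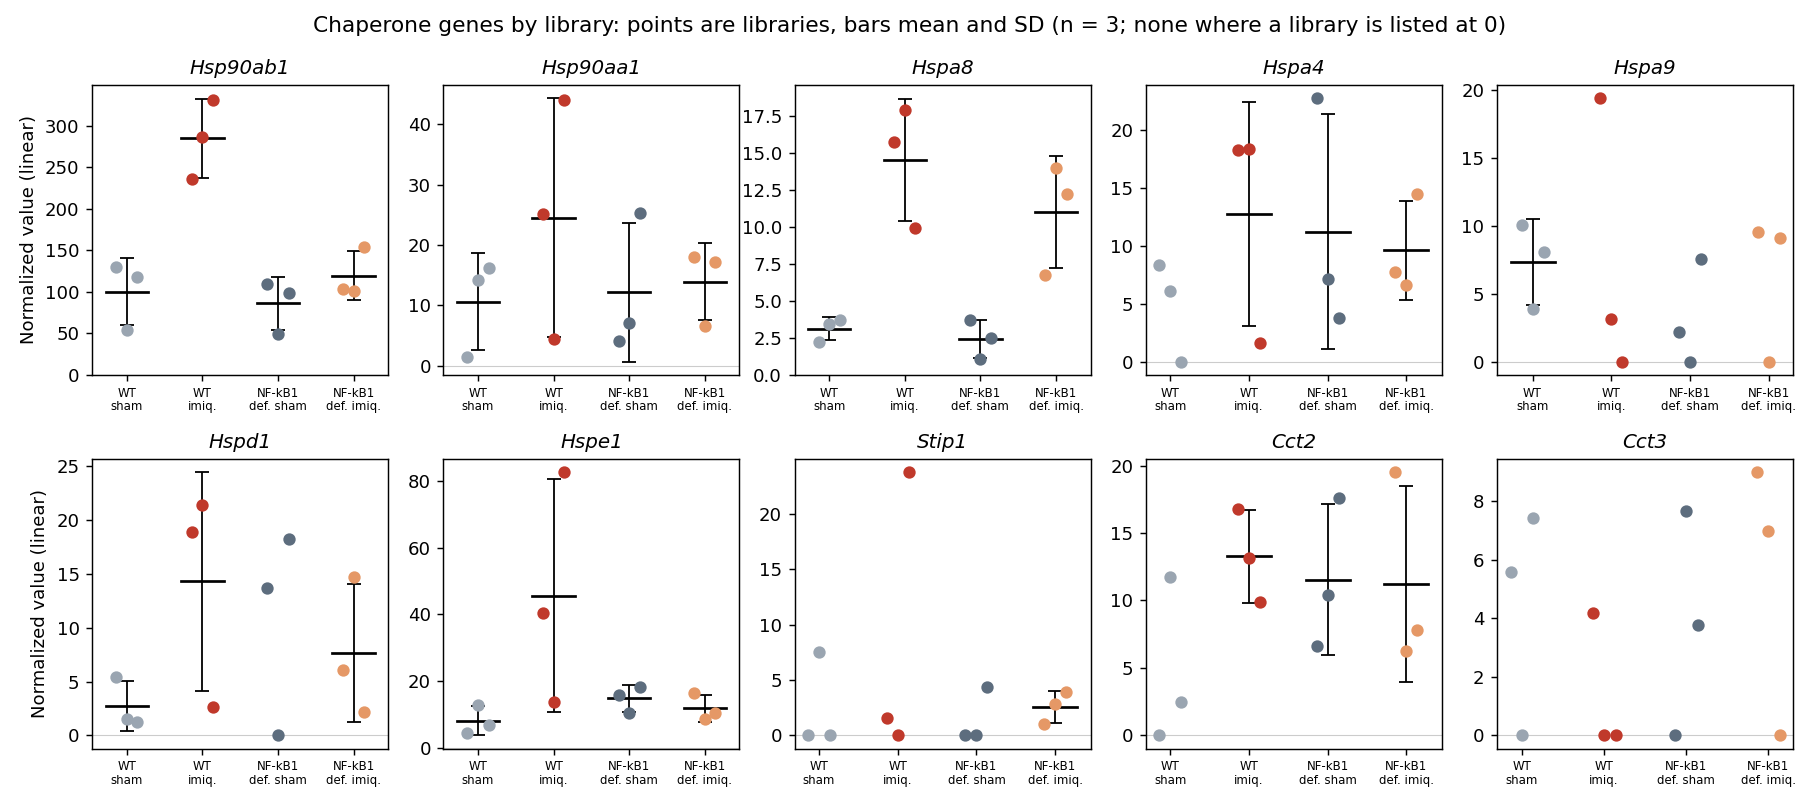
Normalized values of the 10 chaperone genes in each of the 12 libraries (points), with the mean and SD of each group of 3 that holds no listed 0 (bars), on a linear axis for each gene. The 3 wild-type imiquimod libraries of Hsp90ab1 lie at 236, 287 and 332, above the other 9, and Hspa8 is higher under imiquimod than under sham in both genotypes.

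Hsp90aa1 (Entrez Gene 15519, chr12:110690605-110702728, minus strand), the Hsp90 gene that responds to stress, was 9.67 times less abundant on average than Hsp90ab1 and followed another pattern. Its normalized values were 1.398, 14.2 and 16.1 in wild-type sham and 25.1, 4.38 and 44.0 in wild-type imiquimod libraries. In NF-kB1-deficient libraries they were 4.04, 7.12 and 25.3 under sham and 18.0, 6.51 and 17.2 under imiquimod. All 4 groups overlapped, and wild-type imiquimod replicate 2, which held the second highest Hsp90ab1 value, had the third lowest Hsp90aa1 value. The log2 fold change under imiquimod was 1.11 ± 0.92 in wild-type cells (limma adjusted p = 0.522) and 0.42 ± 0.92 in NF-kB1-deficient cells. Across the 12 libraries Pearson's r between the log2 values of both Hsp90 genes was 0.22, given as a description since the libraries share groups and depth.

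Stip1 (Entrez Gene 20867, chr19:7020702-7039967, minus strand), which bridges Hsp70 and Hsp90, was near the limit of detection. It was listed at 0 in 5 of the 12 libraries and stood at 0, 7.57 and 0 in wild-type sham and at 1.57, 0 and 23.8 in wild-type imiquimod libraries. In NF-kB1-deficient cells it was at 0, 0 and 4.40 under sham and at 1.001, 2.79 and 3.89 under imiquimod. Above 0, these values rest on 1.5 to 15.5 estimated reads, and no difference between groups was detectable at this depth.

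Hspa8 (Entrez Gene 15481, chr9:40800984-40810087, plus strand), the Hsp70 that is made constantly in unstressed cells, was low under sham cream and higher under imiquimod in both genotypes. It stood at 2.24, 3.42 and 3.73 in wild-type sham and at 15.7, 17.9 and 9.90 in wild-type imiquimod libraries. In NF-kB1-deficient libraries it was at 3.68, 1.09 and 2.52 under sham and at 6.76, 13.97 and 12.2 under imiquimod. Every one of the 6 imiquimod libraries exceeded every one of the 6 sham libraries. The group means were 3.13 ± 0.786, 14.5 ± 4.13, 2.43 ± 1.29 and 10.98 ± 3.76 in the same order (SD, n = 3). Estimated reads were 1 to 7 in sham and 5 to 20 in imiquimod libraries, so the sham levels in particular are imprecise. Both sham means were below 5, the mean that a gene needed over the 12 libraries, so Hspa8 entered the tests through its imiquimod libraries.

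The log2 fold change of Hspa8 was 1.89 ± 1.09 in wild-type cells (interval -0.26 to 4.05; limma adjusted p = 0.322) and 1.83 ± 1.09 in NF-kB1-deficient cells (interval -0.33 to 3.98; limma adjusted p = 0.996), and neither was called. In NF-kB1-deficient cells Hspa8 was the 1 tested chaperone whose groups did not overlap, against 6.11% of all genes not overlapping in the higher direction. With both sham means below the filter, Hspa8 had to be high under imiquimod to be tested. Its separation is therefore partly set by the filter. The responses of the genotypes differed by -0.06 ± 1.54 on the log2 scale (interval -3.11 to 2.98), an interval too wide to say that they were alike.

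Because Hspa8 was seen to move the same way in both genotypes, the mean of both imiquimod responses was tested afterwards in the same fit, a comparison chosen after the values were seen. Averaged over genotypes, the log2 fold change of Hspa8 was 1.86 ± 0.77 (interval 0.33 to 3.38), with an unadjusted limma p of 0.0172 and an adjusted p of 0.254, so that Hspa8 was not called here either. The unadjusted p was under 0.05 in 13.2% of all genes. All 6 imiquimod libraries lay above all 6 sham libraries for 9 of 1571 genes or 0.573%, and Hspa8 was the 1 chaperone among them. That share is no test of Hspa8. The comparison was chosen for its separation, and Hspa8 passed the filter through its imiquimod libraries. Hsp90ab1 was called in the averaged comparison (1.05 ± 0.22, limma adjusted p = 0.000953), against 0.764% of all genes called higher, although its sham and imiquimod libraries overlapped over both genotypes. It was no longer called without a filter on low values (adjusted p = 0.0769) or without trend and robust options (adjusted p = 0.400).

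The other Hsp70-family members showed no such separation. Hspa4 (Entrez Gene 15525, chr11:53259814-53300457, minus strand), an Hsp110-type protein that exchanges nucleotide on Hsp70, stood at 8.39, 6.10 and 0 in wild-type sham and at 18.3, 18.4 and 1.58 in wild-type imiquimod libraries. In NF-kB1-deficient libraries Hspa4 was at 22.8, 7.12 and 3.78 under sham and at 7.76, 6.64 and 14.5 under imiquimod. All groups overlapped, and replicate 3 was the lowest library in 3 of the 4 groups. The log2 fold change under imiquimod was 1.29 ± 1.08 in wild-type cells (limma adjusted p = 0.532) and 0.06 ± 1.08 in NF-kB1-deficient cells. Hspa9 (Entrez Gene 15526, chr18:34937414-34954357, minus strand), the Hsp70 of the mitochondrial matrix, which pulls proteins through the import channel, was the 1 tested member with a negative wild-type estimate. It stood at 10.06, 3.90 and 8.07 in wild-type sham, 19.4, 3.16 and 0 in wild-type imiquimod, 2.21, 0 and 7.55 in NF-kB1-deficient sham and 9.51, 0 and 9.08 in NF-kB1-deficient imiquimod libraries. These libraries ranged from listed 0 to 19.4 within 1 group, and the log2 fold changes of -0.85 ± 1.25 (wild type, limma adjusted p = 0.761) and 0.65 ± 1.25 (NF-kB1 deficient) had standard errors of the size of the estimates or larger.

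Of the mitochondrial chaperonin pair, Hspe1 (Entrez Gene 15528, chr1:55088132-55091307, plus strand), the lid, separated the wild-type groups. Hspe1 stood at 4.47, 12.9 and 6.83 in wild-type sham and at 40.5, 13.7 and 82.7 in wild-type imiquimod libraries, where replicate 2 lay just above the highest sham library. In NF-kB1-deficient libraries it was at 15.8, 10.4 and 18.2 under sham and at 16.5, 8.73 and 10.4 under imiquimod, which overlapped. The group means were 8.08 ± 4.37, 45.6 ± 34.8, 14.8 ± 4.01 and 11.9 ± 4.11 in that order (SD, n = 3). The log2 fold change was 2.14 ± 0.78 in wild-type cells (interval 0.60 to 3.68; limma adjusted p = 0.103) and -0.31 ± 0.78 in NF-kB1-deficient cells (interval -1.85 to 1.24).

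Unadjusted, the limma p of the wild-type difference of Hspe1 was 0.00691. The difference was called with a pseudocount of 10 (1.44, limma adjusted p = 0.0439) and without wild-type imiquimod replicate 2 (2.81, limma adjusted p = 0.0267). The responses of the genotypes differed by -2.45 ± 1.10 (interval -4.63 to -0.26), with an unadjusted limma p of 0.0283 and an adjusted p of 0.363. Hspe1 and Hsp90ab1 were the 2 of 8 chaperones with an unadjusted p under 0.05 for this difference, against 10.8% of all genes. Under imiquimod Hspe1 differed between genotypes by -1.57 ± 0.78 (limma adjusted p = 0.336).

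Hspd1 (Entrez Gene 15510, chr1:55077835-55088243, minus strand), the chamber-forming subunit, did not follow Hspe1 library by library. The promoter stretch shown above lies in the window of only 1 RefSeq start of Hspd1. Hspd1 stood at 5.40, 1.55 and 1.24 in wild-type sham and at 18.9, 21.4 and 2.64 in wild-type imiquimod libraries. The third wild-type imiquimod library, with the highest Hspe1 value of the series, thus overlapped the sham group in Hspd1. In NF-kB1-deficient libraries Hspd1 was at 13.7, 0 and 18.2 under sham and at 6.09, 14.7 and 2.22 under imiquimod. The log2 fold change was 1.82 ± 1.14 in wild-type cells (limma adjusted p = 0.379) and 0.11 ± 1.14 in NF-kB1-deficient cells. Over the 12 libraries Pearson's r between the log2 values of Hspd1 and Hspe1 was 0.19, and Spearman's rho was 0.43. These are descriptions, with Hspd1 resting on at most 21.08 estimated reads. Hspd1, Hspe1 and Hspa8 have processed pseudogenes of near-identical sequence, and how the authors' counting split such reads is not given in the sources used here. Values of Hspd1 lay within 0.03 of a whole number of reads in 2 of the 11 libraries above 0 and those of Hspe1 in 4 of 12. The numbers were 1 of 12 for Hsp90ab1 and for Hsp90aa1 and 2 of 11 for Hspa4, against 10 of 12 for Hspa8, so fractional values were not particular to the chaperonin pair and included the 1 called gene.

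**Figure D2:**
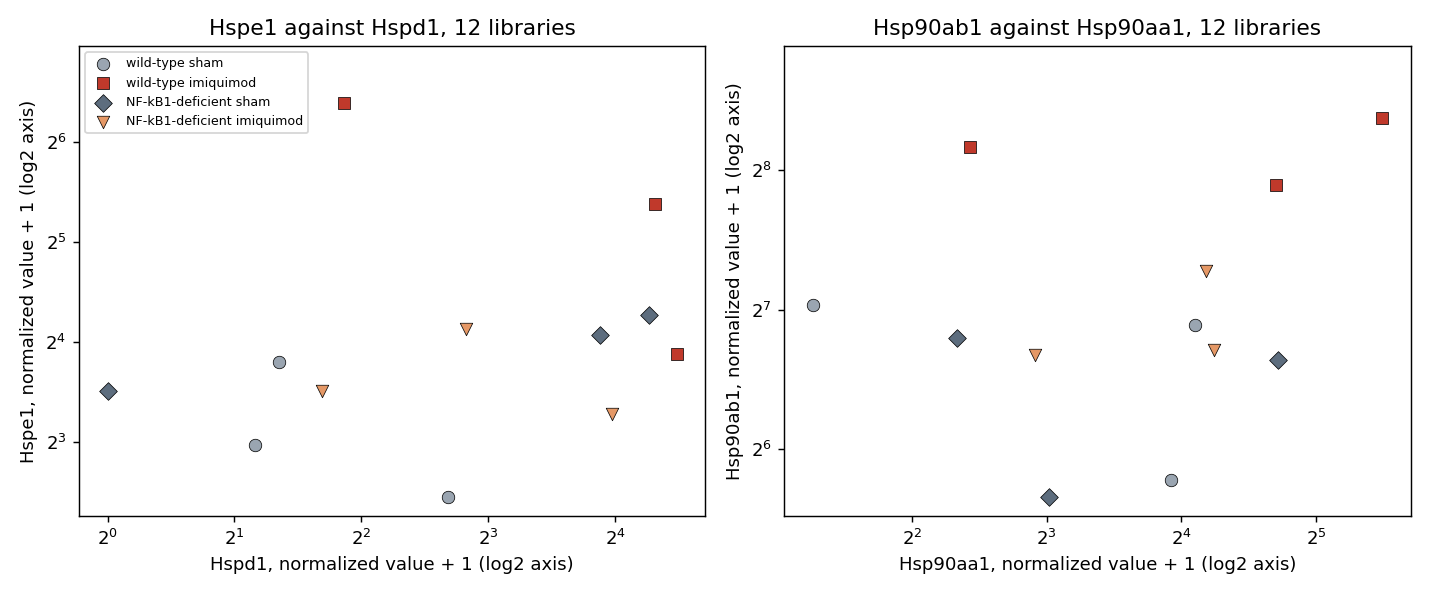
Normalized value + 1 (both axes log2) of Hspe1 against Hspd1 and of Hsp90ab1 against Hsp90aa1, 1 point per library, coloured and shaped by group. The points do not line up in either pair (Pearson's r of 0.19 and 0.22), and the wild-type imiquimod library highest in Hspe1, at 82.7, is low in Hspd1, at 2.64.

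Cct2 (Entrez Gene 12461, chr10:117051001-117063814, minus strand) was the tested TRiC subunit among the members. It stood at 0, 11.7 and 2.48 in wild-type sham, 16.8, 13.2 and 9.90 in wild-type imiquimod, 6.62, 10.4 and 17.6 in NF-kB1-deficient sham and 19.5, 6.29 and 7.78 in NF-kB1-deficient imiquimod libraries. Wild-type sham was the low group, although its replicate 2 lay within the range of the others. The log2 fold change under imiquimod was 1.98 ± 1.04 in wild-type cells (interval -0.07 to 4.03; limma adjusted p = 0.272) and -0.10 ± 1.04 in NF-kB1-deficient cells. Cct3 (Entrez Gene 12462, chr3:88297116-88321767, plus strand) was listed at 0 in 5 of 12 libraries and never above 9.01. It stood at 5.59, 0 and 7.45 in wild-type sham, 4.19, 0 and 0 in wild-type imiquimod, 0, 7.66 and 3.78 in NF-kB1-deficient sham and 9.01, 6.99 and 0 in NF-kB1-deficient imiquimod libraries, and no difference was detectable.

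**Figure D3:**
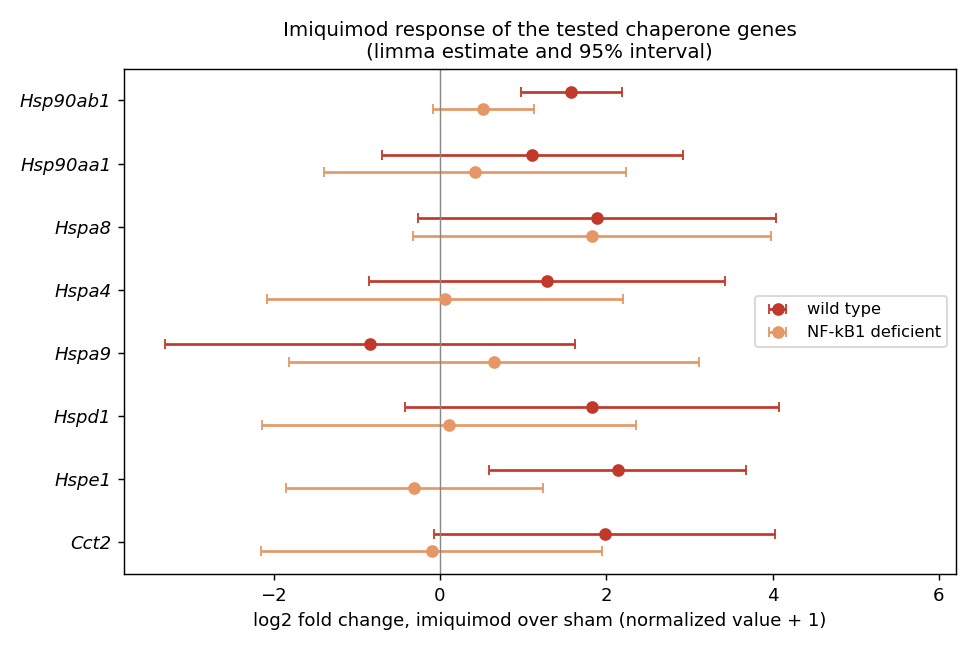
Log2 fold change of imiquimod over sham for the 8 tested chaperone genes in wild-type and NF-kB1-deficient cells, as limma estimates (points) with 95% intervals (bars). The wild-type interval lies above 0 for Hsp90ab1 (0.97 to 2.19) and Hspe1 (0.60 to 3.68), and every NF-kB1-deficient interval includes 0.

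Between genotypes, 0 of the 8 chaperones were called under sham cream, where 0% of all genes were called and 6.11%, 96 genes, had an unadjusted p under 0.05. None of the 8 separated the sham groups, against 9.36% of all genes in either direction. Under imiquimod the 1 call was Hsp90ab1, which was also the 1 member whose groups did not overlap, in the lower direction, as 10.3% of all genes did. The median log2 difference of the 8 under imiquimod was -0.41, with 2 positive, against 0.13 and 53.7% positive over all genes. For the difference of responses the median was -1.14 with 1 positive, Hspa9, against 0.24 and 55% positive. The comparisons share libraries, so these medians are not independent of the wild-type response.

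As a share of all normalized values in a library, the 10 genes together took up 1.01% to 1.25% in wild-type imiquimod libraries. The share was 0.340% to 0.491% in wild-type sham, 0.292% to 0.587% in NF-kB1-deficient sham and 0.522% to 0.696% in NF-kB1-deficient imiquimod libraries. The wild-type imiquimod range lay above the other 3, and no test was made of it. Hsp90ab1 was the largest term of the sum in all 12 libraries.

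The rest of the folding machinery was read from lists of 84 further genes, of which 18 passed the filter, and 0 of the 18 were called in any comparison. In wild-type cells under imiquimod 3 of the 18 had an unadjusted p under 0.05, each higher, against 19.9% of all genes tested, 141 higher and 172 lower. The 3 were Cct6a, Fkbp5 and Cct8. Of the 18, 4 reached the filter only through the wild-type imiquimod libraries, Cct6a among them. The count of 3 and its direction are therefore partly set by the filter, and no conclusion is drawn from them. Among TRiC and its delivery complex prefoldin, 6 of 14 genes were tested. Of these, Cct4, Tcp1 and Cct6a reached the filter only through the wild-type imiquimod libraries, with means of 2.68, 4.41 and 4.82 over the 9 others, as did 209 of all 1571 genes. A gene that enters in this way has to be high in that group, so no count over the 6 is given. The other 3, Cct7, Cct8 and Pfdn2, had wild-type log2 fold changes of 1.70, 1.71 and 1.28, none of them called, and differences of responses of -0.72, -2.77 and -3.15.

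Cct8, another TRiC subunit, stood at 10.06, 3.42 and 17.4 in wild-type sham and at 49.8, 19.5 and 29.1 in wild-type imiquimod libraries. In NF-kB1-deficient libraries it was at 15.9, 21.4 and 20.1 under sham and at 12.02, 4.19 and 12 under imiquimod. The wild-type groups did not overlap, with imiquimod the higher, as in 10.7% of all genes tested. The NF-kB1-deficient groups did not overlap in the other direction, for which the share over all genes is not given here. Cct8 was named for its low p, so its separation is no test. The log2 fold changes were 1.71 ± 0.78 in wild-type cells (limma adjusted p = 0.192) and -1.06 ± 0.78 in NF-kB1-deficient cells. Their difference was -2.77 ± 1.11, with an unadjusted limma p of 0.0135 and an adjusted p of 0.320. Under imiquimod Cct8 differed between genotypes by -1.72 ± 0.78 (limma adjusted p = 0.276).

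The prefoldin subunit Pfdn2 had the lowest p of the 18 for the difference of responses, at -3.15 ± 1.21 (limma adjusted p = 0.290). It stood at 1.12, 10.25 and 27.3 in wild-type sham, 43.5, 5.26 and 33.6 in wild-type imiquimod, 22.1, 38.3 and 22.7 in NF-kB1-deficient sham and 6.76, 10.48 and 3.89 in NF-kB1-deficient imiquimod libraries. The NF-kB1-deficient groups separated, with imiquimod the lower (-1.87 ± 0.85, limma adjusted p = 0.996), and the wild-type groups overlapped. The share of all genes that separated in that direction is not given here, and Pfdn2 was named for its low p. Cct6a, one of the TRiC subunits that passed only through wild-type imiquimod, had a wild-type estimate of 2.91 ± 1.20 (limma adjusted p = 0.147), and a difference of responses of -4.00 ± 1.70 (limma adjusted p = 0.337). Its values were 0, 8.37 and 0 in wild-type sham and 15.7, 6.32 and 31.7 in wild-type imiquimod libraries, and did not exceed 11.3 in NF-kB1-deficient ones.

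The 6 tested of 18 further Hsp90 co-chaperones had 3 positive and 3 negative wild-type estimates. The 3 negative ones, Fkbp4, Sugt1 and Chordc1, each had a listed 0 in wild-type imiquimod, and their group means went the other way. From wild-type sham to wild-type imiquimod these means were 5.45 and 9.90, 6.15 and 6.42, and 4.56 and 5.61. The split in sign is therefore not read as a difference in direction. Of the positive ones, Ahsa1, which speeds up the Hsp90 cycle, passed the filter only through wild-type imiquimod. Fkbp5, an Hsp90-bound immunophilin that acts on steroid receptors, was at 0, 4.39 and 3.11 in wild-type sham and at 11.5, 7.37 and 22.8 in wild-type imiquimod libraries. In NF-kB1-deficient libraries Fkbp5 was at 8.09, 12.5 and 25.2 under sham and at 22.03, 18.6 and 17.0 under imiquimod. Wild-type sham lay below the other 3 groups without overlap. Of all genes tested, 10.7% did not overlap with imiquimod the higher in wild-type cells, and 9.36% did not overlap between the sham groups in either direction. The log2 differences were 2.27 ± 0.97 for wild-type imiquimod over sham (limma adjusted p = 0.156) and 2.39 ± 0.97 for NF-kB1-deficient over wild-type sham (limma adjusted p = 0.809), which share the wild-type sham libraries. Of the cytosolic J-domain proteins, which deliver clients to Hsp70, 5 of 16 were tested, with 3 positive wild-type estimates and a median of 0.35. Hspa14, an Hsp70 tied to the ribosome, was the 1 tested of 18 further Hsp70, Hsp110 and exchange factor genes, at 2.31 ± 1.20 in wild-type cells (limma adjusted p = 0.271). Among the 3 lowest p-values of the 18 in a comparison, with none called, were also Fkbp4, an immunophilin related to Fkbp5, in NF-kB1-deficient cells under imiquimod (1.98), the kinase-specific co-chaperone Cdc37 between genotypes under sham (1.94) and the J-domain protein Dnajc8 between genotypes under imiquimod (-1.28). Averaged over genotypes they were Hspa14 (1.82), the TRiC subunit Cct7 (1.34) and Fkbp5 (1.36). Of 13 further mitochondrial chaperones and proteases 0 passed the filter.

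Of the genes that classically mark a heat shock response 0 were called in any comparison, though only 2 of the 12 listed passed the filter. The stress-inducible genes Hspa1a, Hspb1 and Hspb8 were listed at 0 in all 12 libraries. Hspa1b was above 0 in 2 libraries, at 13.9 in wild-type imiquimod replicate 3 and 4.22 in NF-kB1-deficient imiquimod replicate 3. Hsph1, whose heat shock element is shown above, was listed at 0 in all 3 wild-type imiquimod libraries and reached 14.7 in NF-kB1-deficient sham replicate 1. The 2 tested were Dnajb1, a J-domain partner of Hsp70, and Chordc1, an Hsp90-binding protein, and their wild-type log2 fold changes under imiquimod were -1.93 and -0.59. The group means of Chordc1 went the other way, at 4.56 in wild-type sham and 5.61 in wild-type imiquimod. At this depth a listed 0 does not show absence.

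**Figure D4:**
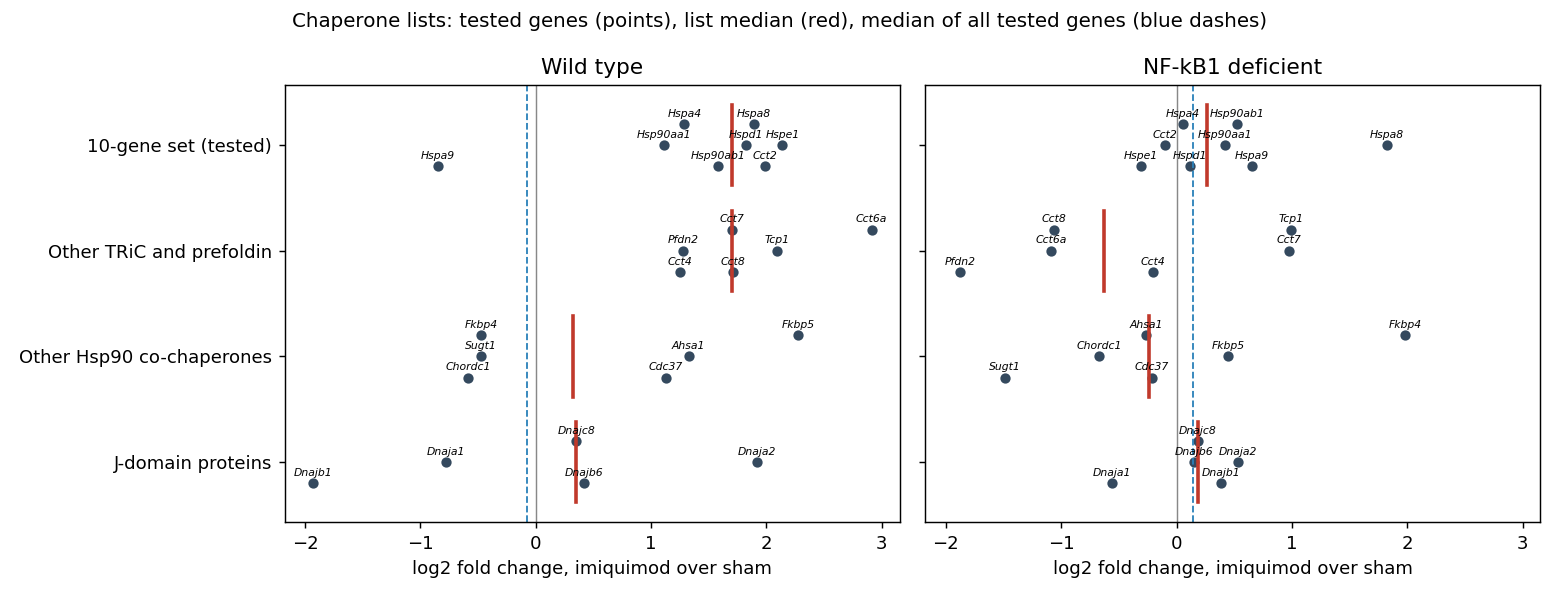
Limma log2 fold changes of imiquimod over sham for each tested gene of the chaperone lists (points), in wild-type and NF-kB1-deficient cells, with list medians in red, the median of all tested genes as blue dashes and the zero line in grey. Cct8 lies at 1.71 in wild-type and -1.06 in NF-kB1-deficient cells, and Cct4, Tcp1, Cct6a and Ahsa1 are shown although they passed the filter only through the wild-type imiquimod libraries.

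To place the chaperones among all genes, the log2 values of the 8 tested members were standardized and averaged in each library, and each tested gene outside the chaperone lists was correlated with this mean over the 12 libraries. The mean was highest in wild-type imiquimod replicate 1, at 1.09 SD units, and lowest in NF-kB1-deficient sham replicate 2, at -0.89. The 5 genes most like it were Calr (Pearson's r = 0.95), Ssbp1 (0.91), Lmnb1 (0.89), Rrs1 (0.89) and Pcna (0.87). Over the 9 libraries outside wild-type imiquimod, Ssbp1, Lmnb1, Rrs1 and Pcna had means under 5. They thus passed the filter only through the group where the members' mean was highest, and their likeness partly follows from that. Calr encodes calreticulin, a chaperone of the endoplasmic reticulum. Ssbp1 encodes the single-strand DNA-binding protein of mitochondria, Lmnb1 a protein of the nuclear lamina, Rrs1 a ribosome assembly factor and Pcna the sliding clamp of DNA replication.

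Calr showed the pattern most plainly. It was at 43.5, 28.6 and 21.8 in wild-type imiquimod libraries, while wild-type sham had a listed 0 in each of its 3. In NF-kB1-deficient libraries it was at 8.09, 0 and 12.7 under sham and at 11.3, 2.79 and 15.4 under imiquimod, so wild-type imiquimod was the high group without overlap. These genes were picked for their likeness from 12 libraries that share groups and depth, so the correlations carry no test. Among the members, correlation with the mean to which each contributes ranged from 0.31 (Hspa9) to 0.77 (Hspa8). Of the 45 pairs of members, Hsp90ab1 and Hspa8 had an r of 0.73, Hsp90aa1 had an r of 0.71 with both Hspe1 and Stip1, and Hsp90aa1 and Hspa4 had an r of -0.42.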

How the data were processed

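RNA of Vg4+Vd4+ gamma delta T cells was extracted with Trizol and sequenced from QuantSeq 3' FWD libraries, per the labels' protocols. The submitters' processing notes name mm10 as the genome build. Aligner, counter, annotation and normalization method: not given in the sources used here. Log2 normalized read counts for 45796 genes in 12 libraries were deposited by the authors in 1 table; these were converted to linear values, and a 0 is described as listed at 0. The reads behind each value were estimated from the step that 1 read makes in a library. Between 71.0% and 80.2% of values under 20 reads came out whole within 0.01, too few for a count test. Of 66 pairs of libraries 0 were identical.

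Genes with a mean of at least 5 over the 12 libraries were tested with limma 3.58.1 (R 4.3.3) on log2(normalized value + 1). The fit had 1 coefficient per group over all 4 groups and empirical Bayes with trend and robust options. Benjamini-Hochberg adjustment was over the 1571 genes. There were 8 residual degrees of freedom against a median of 145 from the prior. A gene's standard error thus came mostly from the trend over all genes tested, and little from its own libraries. There were 5 planned comparisons, and the average over genotypes was added later. The code was tested on simulated data. Alternatives changed the pseudocount (0.1 and 10), the filter (20 or none), the scaling (equal totals, median ratio), the variance prior, the samples in the fit, and a replicate block. Gene positions are from GENCODE (GRCm38), and promoters from RefSeq (GRCm38.p6). Figures were drawn with matplotlib 3.10.9 and Python 3.11.15.

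The 10 genes, the chaperone and marker lists and the tests were chosen with earlier results of these data known. Named beside the 10 were, per comparison, the 3 tested list genes with the lowest p, and the 5 genes most correlated with the tested members' mean. The stress-inducible genes described by their listed values were chosen from their list afterwards.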

Additional observations from a re-analysis of the deposited data

How the results depend on the processing

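The count of tested chaperones called in wild-type cells under imiquimod, 1, was 2 with a pseudocount of 10 and 0 without trend and robust options, and 1 to 2 when single libraries were left out (2 without wild-type imiquimod replicate 2). Between genotypes under imiquimod the count of 1 fell to 0 without a filter and without trend and robust options, and was 0 to 1 over the fits that left out a library (0 without NF-kB1-deficient imiquimod replicate 1 or replicate 2). Averaged over genotypes the count of 1 was 0 without a filter and without trend and robust options. The other 3 comparisons had 0 members called in every fit.

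Over all genes, the 51 calls in wild-type cells were 26 with a pseudocount of 0.1, 11 without a filter, 18 without trend and robust options and 28 with only the groups compared, and were 26 without wild-type sham replicate 3 and 28 without wild-type imiquimod replicate 1. The 28 calls between genotypes under imiquimod were 18, 3, 0 and 17 under the same 4 settings, 18 without NF-kB1-deficient sham replicate 1, and 10, 4 and 9 without NF-kB1-deficient imiquimod replicates 1, 2 and 3. The 7 calls for the difference of responses were 13 with a minimum mean of 20, 1 without a filter, 0 without trend and robust options, and 2 to 12 with single libraries left out. The 21 calls averaged over genotypes were 9 with a pseudocount of 0.1, 5 without a filter and 0 without trend and robust options. They were 9 without wild-type sham replicate 1 or NF-kB1-deficient imiquimod replicate 3, 10 without NF-kB1-deficient imiquimod replicate 1, 11 without NF-kB1-deficient sham replicate 2 and 13 without wild-type imiquimod replicate 1. Scaling to equal totals moved the median of all genes from -0.07 to -0.25 in wild-type cells. Between genotypes under imiquimod the median went from 0.13 to 0.34, and for the difference of responses from 0.24 to 0.41. This scaling changed the split of calls from 26 higher and 25 lower to 19 and 29 in wild-type cells. The split went from 20 and 8 to 25 and 5 between genotypes, and from 3 and 4 to 6 and 4 for the difference. With a pseudocount of 10 the splits were 47 and 25 in wild-type cells and 11 and 17 between genotypes, and without wild-type imiquimod replicate 3 the wild-type split was 12 and 31. The cause of these changes was not tested.

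Directions changed only for estimates that were not called. With a pseudocount of 10 these were Hspa4 (-0.0314) and Hspd1 (-0.15) in NF-kB1-deficient cells, Hspa4 (-0.12) and Hspa9 (-0.0182) between genotypes under imiquimod and Hspa9 (0.0692) averaged over genotypes. The Hspa8 difference of responses was 0.0508 with a pseudocount of 0.1 and 0.12 with equal totals. With single libraries left out, Hspa9 ranged from -1.19 to 0.22 in wild-type cells and from -0.50 to 0.46 averaged over genotypes. In NF-kB1-deficient cells the ranges were -0.0895 to 1.10 for Hsp90aa1, -0.46 to 0.70 for Hspa4, -0.15 to 1.77 for Hspa9, -1.24 to 0.89 for Hspd1 and -0.55 to 0.23 for Cct2. Between genotypes under sham they were -0.60 to 0.15 for Hsp90ab1 and -0.66 to 0.77 for Hsp90aa1, and under imiquimod -1.32 to 0.21 for Hsp90aa1, -0.94 to 0.52 for Hspa4 and -0.96 to 1.23 for Hspa9. For the difference of responses they were -1.58 to 0.23 for Hsp90aa1 and -0.38 to 0.22 for Hspa8.

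The groups share replicate numbers, but the labels do not say that a number marks a shared animal or batch. Deviations of same-numbered samples correlated by -0.01 to 0.06 over 18 pairs, with a median of 0.016. Samples with different numbers correlated by -0.06 to 0.04 over 36 pairs, with a median of -0.004. Of the 12 samples, 9 correlated best with one of their own number, and whether a number marks a pairing or batch was not tested. With the replicate block the members called were 1 in wild-type cells under imiquimod, 1 between genotypes under imiquimod, 1 averaged over genotypes and 0 in the other 3 comparisons, and the calls over all genes were 55, 32, 22 and, for the difference of responses, 7. The median standard error over the genes tested in wild-type cells was 1.12 on the log2 scale, and the shares of depth and of other spread between libraries in it were not tested.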

Other observations

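Fitted without a filter on low values, the 2 chaperones left out of the tests gave wild-type log2 fold changes of 0.96 ± 1.21 for Stip1 (limma adjusted p = 0.891) and -1.14 for Cct3 (limma adjusted p = 0.841) under imiquimod. The Hspa1b value of 13.9 in wild-type imiquimod replicate 3 came from the same library as the highest Stip1 (23.8), Hsp90aa1 (44.0) and Hspe1 (82.7) values of the series. That library was also the shallowest, at 20507 estimated reads. Hspa9 was listed at 0 in the same library.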
